A study of Homo sapiens with 6 samples.

Results

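Small nuclear RNAs (snRNAs) of the spliceosome were examined in HEK293 cells, a human embryonic kidney cell line, with and without heat shock. The members were chosen by gene name, as RNU4-1, RNU4-2, RNU5A-1, RNU5B-1, RNU5D-1 and RNU5E-1 of the major spliceosome and RNU4ATAC, RNU6ATAC, RNU11 and RNU12 of the minor spliceosome. These are 10 genes, of which 6 had an annotated line in the assemblies (2 major and all 4 minor), among 24279 genes in all. In the merged table of 117001 entries, each placed at a locus, 5 of the 10 were named, namely RNU5E-1, RNU4ATAC, RNU6ATAC, RNU11 and RNU12.

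Total RNA depleted of ribosomal RNA was sequenced from 3 control libraries, from cells grown at 37°C and left untreated, and from 3 heat shock libraries, from an aliquot of cells held in a 45°C water bath for 30 minutes. All samples come from the same cell line, and the labels do not say whether the replicates were separate cultures, so each p-value measures only the spread between these libraries. The values are FPKM (fragments scaled by transcript length and by the mapped fragments of the library), assembled by the authors with Cufflinks, which also gives each transcript a 95% interval.

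A spliceosome is built anew on each intron from small nuclear ribonucleoproteins, each an snRNA bound by proteins. In the major spliceosome, U1 recognises the 5′ splice site, U2 the branch point, and U4, U5 and U6 join as a preassembled tri-snRNP. The minor spliceosome removes a rare class of introns with U11 and U12 in place of U1 and U2, and U4atac and U6atac in place of U4 and U6. U5 is shared by both, so the RNU5 genes serve the minor spliceosome as well. Most snRNAs carry an Sm site, a U-rich stretch on which a ring of Sm proteins is assembled in the cytoplasm, while U6 and U6atac bind the LSm ring at their 3′ end instead.

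The sequences of the 4 minor snRNAs are shown first because each of them was above 0 in several libraries. They were read 5′ to 3′ from GRCh37, as DNA letters, at the positions of the deposited annotation. RNU11 lies at chr1:28975112-28975246 on the plus strand and is 135 nt long. RNU4ATAC lies at chr2:122288456-122288585 on the plus strand and is 130 nt long. RNU6ATAC lies at chr9:137029562-137029686 on the minus strand and is 125 nt long. RNU12 lies at chr22:43011251-43011399 on the plus strand and is 149 nt long. Capitals mark each match to the letters searched for an Sm site on the transcribed strand, which were ATTTTG and the same with 1 or 2 further T. Such a stretch was present in 7.78% of the 6401 GENCODE transcripts of 100 to 200 nt other than the members.
RNU11: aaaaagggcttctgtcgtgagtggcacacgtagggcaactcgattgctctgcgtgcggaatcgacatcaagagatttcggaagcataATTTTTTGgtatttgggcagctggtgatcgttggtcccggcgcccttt
RNU4ATAC: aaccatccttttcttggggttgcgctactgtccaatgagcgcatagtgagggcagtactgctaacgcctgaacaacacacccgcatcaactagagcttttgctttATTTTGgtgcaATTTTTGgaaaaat
RNU6ATAC: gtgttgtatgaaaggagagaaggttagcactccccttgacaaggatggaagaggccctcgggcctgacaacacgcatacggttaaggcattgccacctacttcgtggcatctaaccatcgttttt
RNU12: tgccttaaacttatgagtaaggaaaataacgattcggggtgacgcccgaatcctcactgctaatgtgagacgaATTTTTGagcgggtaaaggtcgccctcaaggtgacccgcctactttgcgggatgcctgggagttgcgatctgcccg

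RNU11 and RNU12 held the letters once, at positions 88 and 74 from the 5′ end, RNU4ATAC held them at positions 106 and 117, and RNU6ATAC held none. All 4 RNU5 genes had the stretch at position 88 and both RNU4 genes at position 119. The RNU4-1 and RNU4-2 genes, 141 nt each, were 97.2% identical with 4 mismatches, and RNU5A-1 and RNU5B-1 were 94.0% identical. In GRCh37, RNU11, RNU12 and RNU4ATAC each had 1 place covering at least 90% of the gene at 95% identity or more, the gene itself. RNU6ATAC had 6 such places and the RNU4 genes had 2, so fragments of RNU6ATAC can match other places and its values are uncertain in that respect.

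The surroundings of the 4 minor genes differed. RNU4ATAC lies in an intron of CLASP1, a microtubule-binding protein gene on the opposite strand, and in an intron of the antisense gene CLASP1-AS1. The library kit is not stated to keep the strand, so fragments of CLASP1 introns and of RNU4ATAC cannot be told apart by strand. RNU11 lies 309 bp from TAF12 and within an exon of a long non-coding gene on its own strand. RNU12 lies 283 bp from POLDIP3, also within an exon of a long non-coding gene on its own strand. It also overlaps an unnamed protein-coding gene on the opposite strand, outside its exons, and the limit on strand holds there too. GENCODE held no gene under the names RNU11 and RNU12. Whether the long non-coding entries at their places are these snRNAs under another name was not worked out. RNU6ATAC overlaps no other gene and lies 4472 bp from WDR5.

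Control replicates 1 and 2 and heat shock replicate 3 held 141632 to 194489 assembled transcripts without a strand, and the other 3 libraries held 17304 to 45600. The common factor of a library, a median ratio computed from 982 abundant genes (over 10 FPKM in each of the 6 libraries), was 0.434 to 0.957 in the controls, 2.13 and 2.32 in heat shock replicates 1 and 2, and 0.487 in heat shock replicate 3. The median log2 difference of all 13034 genes tested, heat shock minus control, was 0.45 as deposited and -0.21 over the same genes once each library was divided by its factor. In the fit made on the divided values, in which 13869 genes passed the minimum, it was -0.25. DNAJB1, a heat shock co-chaperone, read 7.32, 4.84 and 9.18 FPKM in the controls and 121, 116 and 34.0 FPKM after heat shock, which set all heat shock libraries above all controls. HSPA1A read 5.00, 3.39 and 4.82 FPKM in the controls and 30.0, 31.3 and 6.88 FPKM after heat shock, also without overlap. HSPH1 read 9.97, 4.40 and 8.87 FPKM against 28.3, 28.1 and 6.66 FPKM, so its groups overlapped. Divided by the common factor, HSPH1 read 10.6, 10.1 and 9.27 FPKM in the controls and 13.3, 12.1 and 13.7 FPKM after heat shock, without overlap. DNAJB1 and HSPA1A also stayed apart on that scale, as did 1.99% of the genes tested, while HSP90AA1 and BAG3 of the same check overlapped. The adjusted p of DNAJB1, HSPA1A and HSPH1 was 0.711 each in limma as deposited. On the divided values it was 0.14 for DNAJB1 and 0.91 for the others. Of 7 heat shock genes taken as a check, 0 were called. Of the HEK293 markers, the lowest value of VIM, KRT8, KRT18, NEFL and NEFM in any library was 1.44 FPKM. PAX2, EYA1 and LHX1 fell as low as 0.320, 0.276 and 0.234 FPKM. The blood, liver and islet markers PTPRC, CD3E, HBB, ALB and INS reached at most 0.344 FPKM, so PAX2, EYA1 and LHX1 were not set apart from them by level in every library.

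RNU11, the U11 snRNA that recognises the 5′ splice site of minor introns, was the member whose libraries separated by group. Its gene value, which adds the assembled transcripts that Cufflinks grouped with it, was 1.58, 0 and 14.4 FPKM in control replicates 1 to 3 and 82.1, 122 and 18.5 FPKM in heat shock replicates 1 to 3. All heat shock libraries lay above all controls, although heat shock replicate 3 was close to control replicate 3. Of the 13034 genes tested, 3.71% had all heat shock libraries above all controls. The fitted log2 difference of RNU11 was 4.10 with an SE of 1.04 on the log2(FPKM + 1) scale (limma, p = 0.00172, adjusted p = 0.711), and the two-sided exact permutation test gave 0.1, the smallest p that 3 libraries against 3 allow. RNU11 was therefore not called, and 0.023% of the genes tested were.

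The call on RNU11 turned with 1 setting. With a minimum mean of 10 FPKM, which left 2914 genes, its adjusted p in limma was 0.0114, and 0.137% of those genes were called. Over all 17 alternatives its log2 difference stayed between 3.21 and 5.41, with adjusted p between 0.0114 and 0.998. Divided by the common factor, RNU11 stood at 1.69, 0 and 15.1 FPKM in control replicates 1 to 3 and at 38.5, 52.6 and 38.0 FPKM in the heat shock replicates. The heat shock libraries came closer to each other on this scale and remained above all controls, as did those of 1.99% of the genes tested.

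**Figure D1:**
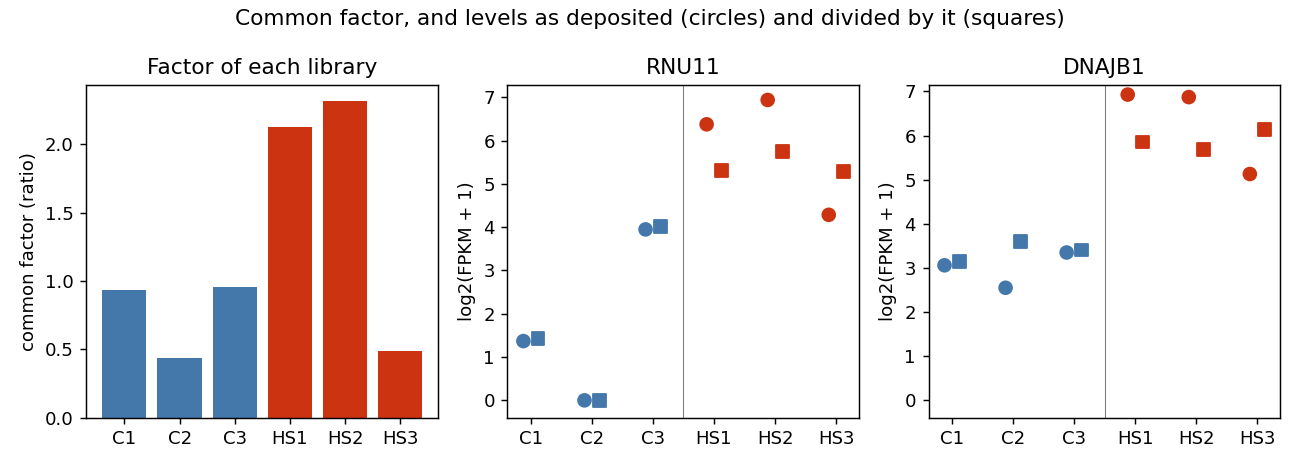
Common factor of each library (left, a ratio without unit) and the level of RNU11 (middle) and DNAJB1 (right) as log2(FPKM + 1) in control (C, blue) and heat shock (HS, red) replicates 1 to 3, as deposited (circles) and divided by the factor (squares). The heat shock libraries of RNU11 sit above the controls on both scales, and after division they lie between 38.0 and 52.6 FPKM.

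Few fragments stood behind these values. The interval that Cufflinks gives implies a number of fragments when read as the FPKM plus or minus 2 Poisson standard deviations, and for the annotated line of every member above 0 this number was whole. Over all annotated single-transcript lines under 30 fragments, 71.2% to 73.1% per library came out whole within 0.02. RNU11 had 0, 0 and 1 such fragments in control replicates 1 to 3 and 7, 11 and 2 in heat shock replicates 1 to 3. The exact Poisson 95% interval, which covers counting error only, was 0.0253 to 5.57 for the 1 fragment of control replicate 3 and 0.242 to 7.22 for the 2 fragments of heat shock replicate 3, so these libraries could not be told apart by counting. The intervals of heat shock replicates 1 and 2 were 2.81 to 14.4 and 5.49 to 19.7.

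A value of 0 on the annotated RNU11 line went with a longer transcript over the gene. In control replicate 1 a transcript of 1308 nt spanned RNU11 at 1.58 FPKM, with 31 implied fragments, and in control replicate 2 a strandless transcript of 1452 nt spanned it at 1.47 FPKM, also with 31. The other 4 libraries listed no longer transcript there, and in these the annotated line was above 0. The part of this difference in assembly in the RNU11 result was not tested. Every line in the merged RNU11 locus of 5306 bp (chr1:28971792-28977097) was also summed. The controls then read 4.75, 2.60 and 17.6 FPKM and the heat shock libraries 93.0, 127 and 32.3 FPKM. This sum contains the annotated RNU11 line, so it is not a separate measure. As FPKM is scaled by length, a fragment on a longer transcript adds less to it, and the difference in assembly remains in the sum. The authors' pooled values of the entry that names RNU11 were 6.97 FPKM for control and 223 FPKM for heat shock. The latter lies above every heat shock library, so it is not a mean of the library values given here.

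RNU4ATAC encodes U4atac, which holds U6atac inactive until the minor spliceosome is activated. Its annotated line read 32.6, 0 and 0 FPKM in the controls and 148, 76.0 and 0 FPKM after heat shock, from 4, 0 and 0 and from 11, 6 and 0 implied fragments. Heat shock replicates 1 and 2 were high on this line, whereas heat shock replicate 3 equalled the lowest controls. In control replicate 3, however, an assembled transcript of 149 nt on the plus strand (chr2:122288472-122288620) covered 87.7% of the gene at 173 FPKM, with an interval of 88.9 to 256 and 17 implied fragments. The gene value of control replicate 3 was thus 173 FPKM, the highest of the 6 libraries, while its annotated line was listed at 0.

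With this transcript counted, the groups of RNU4ATAC overlapped completely. The log2 difference was 0.33 with an SE of 1.91 (limma, adjusted p = 0.926; exact permutation p = 1). With annotated lines alone, it was 2.81 (limma, adjusted p = 0.8). Divided by the common factor, the difference was -0.48 (limma, adjusted p = 0.965). CLASP1, the gene around it, read 5.59, 1.53 and 2.35 FPKM in the controls and 3.58, 3.70 and 1.61 FPKM after heat shock, a log2 difference of 0.0039 with an SE of 0.52. The merged locus of RNU4ATAC spans 311799 bp and includes CLASP1. The authors' pooled values of the entry that names RNU4ATAC were 30.5 FPKM for control and 126 FPKM for heat shock.

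RNU6ATAC encodes U6atac, which forms part of the catalytic core of the minor spliceosome. Its gene value was 2.71, 21.0 and 19.1 FPKM in the controls and 61.9, 87.6 and 0 FPKM after heat shock. The control value of 2.71 FPKM belonged to a transcript of 13787 nt, and the annotated line itself was at 0 there. Heat shock replicates 1 and 2 lay above all controls and heat shock replicate 3 below them, so the groups overlapped. In heat shock replicate 3 a strandless transcript of 6809 nt spanned the gene at 2.15 FPKM. For RNU6ATAC, as for RNU11, the annotated line was at 0 in the libraries with a longer transcript over the gene and above 0 in the other libraries.

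Few fragments again carried the RNU6ATAC line, with 0, 2 and 1 implied in the control and 4, 6 and 0 in the heat shock replicates. The log2 difference was 0.59 with an SE of 1.43 (limma, adjusted p = 0.822; exact permutation p = 0.8). It was -0.59 after division by the common factor. Single libraries decided it, as the difference was 2.66 without heat shock replicate 3, -0.24 without control replicate 1, -0.32 without heat shock replicate 1 and -0.57 without heat shock replicate 2. The authors' pooled values of the entry that names RNU6ATAC, at a merged locus of 15255 bp, were 14.1 FPKM for control and 142 FPKM for heat shock.

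RNU12 encodes U12, which pairs with the branch point of minor introns and was the lowest of the 4. Its gene value was 2.37, 5.59 and 0 FPKM in the controls and 16.5, 0 and 6.50 FPKM after heat shock. The control value of 2.37 FPKM came from a transcript of 10530 nt over the gene. Each group held a library at 0, so the groups overlapped. The annotated line had at most 2 implied fragments in any library, while the transcript of 10530 nt had 462. The log2 difference was 0.85 with an SE of 0.93 (limma, adjusted p = 0.711; exact permutation p = 0.6). The merged locus has the bounds of the gene, 149 bp, and the authors' pooled values of the entry that names RNU12 were 4.05 FPKM for control and 16.8 FPKM for heat shock.

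**Figure D2:**
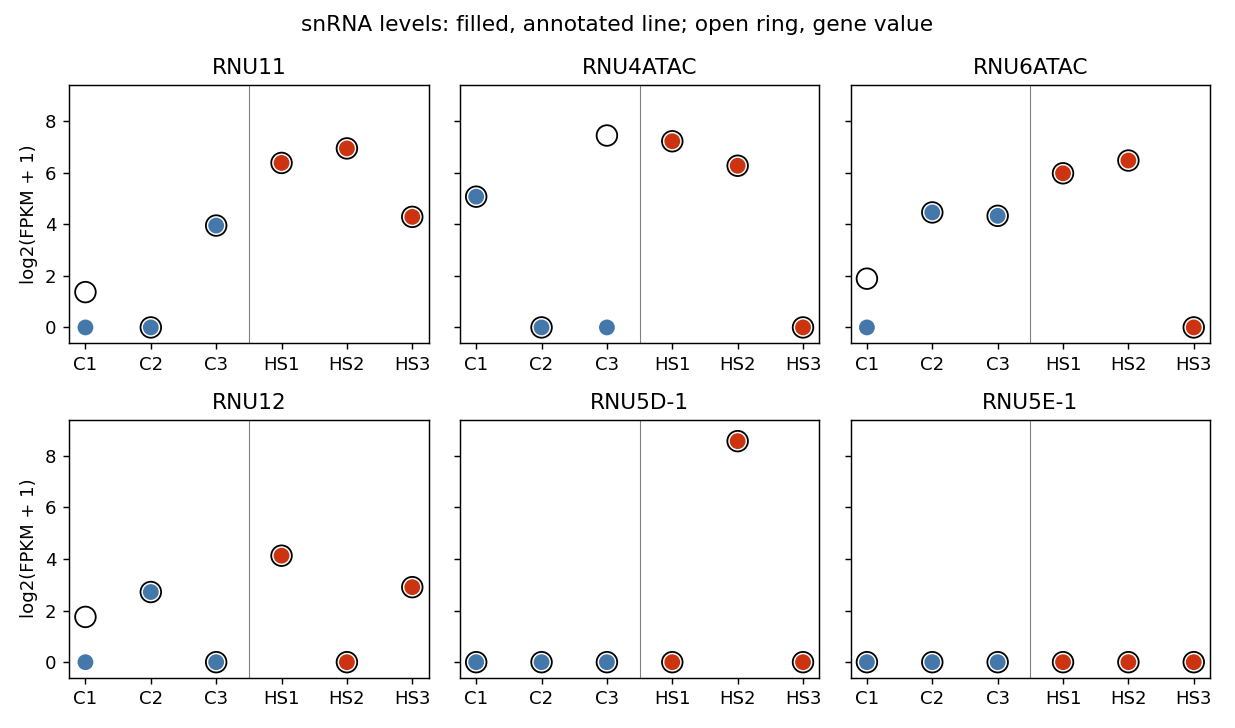
Level of each snRNA with an annotated line, as log2(FPKM + 1), in control (C, blue) and heat shock (HS, red) replicates 1 to 3. Filled points are the annotated line and open rings the gene value with grouped assembled transcripts, and they part in control replicate 1 for RNU11, RNU6ATAC and RNU12 and in control replicate 3 for RNU4ATAC, where the ring stands at 173 FPKM over a line at 0.

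Summed over the 4 minor snRNAs, the annotated lines held 4, 3 and 2 implied fragments in control replicates 1 to 3 and 24, 23 and 3 in heat shock replicates 1 to 3. The exact Poisson 95% intervals of heat shock replicates 1 and 2 were 15.4 to 35.7 and 14.6 to 34.5, and those of the other 4 libraries reached no higher than 10.2. Heat shock replicate 3 therefore stood with the controls in this sum, and the 17 fragments on the assembled RNU4ATAC transcript of control replicate 3 are not in it. Heat shock replicates 1 and 2 are also the libraries with the highest common factors. The part of library scale in these sums was not tested.

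**Figure D3:**
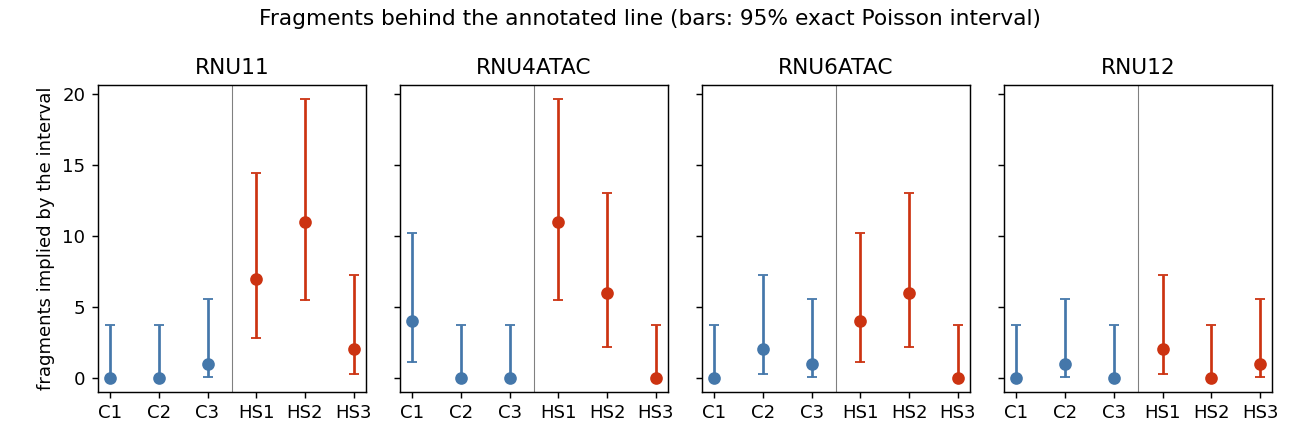
Fragments implied by the Cufflinks interval for the annotated line of each minor snRNA (y axis, number of fragments) in control (C, blue) and heat shock (HS, red) replicates 1 to 3, with exact Poisson 95% intervals as bars. Heat shock replicates 1 and 2 of RNU11 and RNU4ATAC rest on 6 to 11 fragments, and every other point of the 4 genes on 6 or fewer.

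The major snRNAs gave almost no values. RNU5D-1 and RNU5E-1 encode variants of U5, whose loop 1 contacts the exons on both sides of the splice site. In GENCODE both genes lie on chromosome 1, while the deposited annotation places their accessions on chromosome 5, as models of 2 exons that lie 245192 bp apart. RNU5D-1 was listed at 0 in all 3 controls and in heat shock replicates 1 and 3, and at 378 FPKM in heat shock replicate 2, with a Cufflinks interval of 0 to 914. That value rested on 2 implied fragments. A fragment was worth 189 FPKM on this model of 64 nt, compared with 5.59 to 19.1 FPKM on the minor snRNAs. The annotated line of RNU5E-1 was at 0 in all 6 libraries and could not be tested. Over 64 letters the chromosome 5 models of RNU5D-1 and RNU5E-1 were identical, so a fragment there cannot be assigned to either name. In local alignment the RNU5D-1 model was 93.8% identical to each of the RNU5A-1, RNU5D-1 and RNU5E-1 genes. The 378 FPKM is therefore not a value of RNU5D-1 in particular.

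The fitted log2 difference of RNU5D-1 was 2.86 with an SE of 1.66 (limma, adjusted p = 0.711; exact permutation p = 1). With the replicate number as a block its adjusted p was 0.00777 in limma, and 0.13% of the genes were called in that fit. The difference rests on heat shock replicate 2 in either fit, and without that library all 5 values are 0. The authors' pooled values of the entry that names RNU5E-1 were 0 for control and 407 FPKM for heat shock. The locus of this entry spans 790565 bp of chromosome 5 and takes in ACOT12, CKMT2, LOC100131067, RASGRF2, SSBP2 and ZCCHC9. With every line in this locus summed, the controls read 15.7, 5.36 and 7.30 FPKM and the heat shock libraries 93.8, 414 and 3.14 FPKM. The pooled 0 for control is thus not a value of the whole locus. The groups overlapped, and the 414 FPKM of heat shock replicate 2 contained the 378 FPKM of RNU5D-1. The log2 difference of this sum was 2.51 with an SE of 1.35 (limma, adjusted p = 0.711; exact permutation p = 0.4). Of the other genes of the locus, ZCCHC9 read 1.08 to 8.38 FPKM over the 6 libraries and ACOT12 at most 0.0603 FPKM.

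The genes RNU4-1, RNU4-2, RNU5A-1 and RNU5B-1 had no annotated line. RNU4-1 (chr12:120730900-120731040) and RNU4-2 (chr12:120729566-120729706) lie side by side on the minus strand and encode U4, which keeps U6 inactive in the tri-snRNP. RNU5A-1 (chr15:65588389-65588504) and RNU5B-1 (chr15:65597015-65597130) lie on the plus strand, the former in an intron of PARP16. At the GENCODE places of the 6 major genes, the assemblies held 11 transcripts, all without a strand, of 495 to 1617 nt and 0.964 to 3.16 FPKM. None of them was in heat shock replicates 1 and 2. No transcript overlapped RNU5A-1.

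The comparison of minor with major snRNAs within a library could thus be made only against RNU5D-1 and RNU5E-1. The mean log2(FPKM + 1) of the 4 minor snRNAs minus that of these 2 was 2.52, 1.79 and 3.93 in control replicates 1 to 3 and 5.92, 0.635 and 1.80 in heat shock replicates 1 to 3. The highest and the lowest value were both heat shock libraries. The low value of heat shock replicate 2 contained the 378 FPKM of RNU5D-1. The group means differed by 0.038, against SDs of 1.09 among the controls and 2.78 among the heat shock libraries (n = 3 each), and with annotated lines alone by 1.08. Since RNU5E-1 was at 0 throughout, RNU5D-1 was at 0 in 5 of 6 libraries and U5 belongs to both spliceosomes, these values do not compare the minor with the major spliceosome. Short annotated RNAs were seldom seen in general, as 19.5% to 22.3% of the 359 other annotated lines of 100 to 200 nt were above 0 in a library.

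The protein partners of the snRNAs were examined as 6 lists, and 0 genes of these lists were called in the limma fit over all genes, where 0.023% were called. At an unadjusted p under 0.05 in limma there were 2, SMN2 and ZC3H8, both with a positive log2 difference and an adjusted p of 0.711, among 111 list genes tested, beside 3.7% of all genes tested. Without heat shock replicate 3 there were 64 of 111, all with a positive log2 difference, beside 49% of all genes tested, and 0 list genes were called. The list medians moved with single libraries, from 0.18 to 0.47 at their lowest, without control replicate 2 or heat shock replicate 1 or 2, to between 0.94 and 1.66 without heat shock replicate 3. Of 17 genes of U1 and U2 snRNP proteins tested, 16 had a positive log2 difference, with a median of 0.76 against 0.45 over all genes tested. As that median was positive, more genes were positive than negative among all genes tested. Their exact share was not worked out, so the counts of positive genes do not set this or the other lists apart from all genes. After division by the common factor 3 of the 17 were positive, with a median of -0.10 against -0.25. With a minimum mean of 10 FPKM the median over all genes tested was 0.82. There the U1 and U2 list had 0.79, the U5 and tri-snRNP list 0.85 and the minor spliceosome list 0.85 from 2 genes. The Sm and LSm list had 0.90, the assembly list 0.58 and the transcription list 0.65. SNRNP70, which binds U1, read 22.7, 8.96 and 24.8 FPKM in the controls and 51.3, 48.9 and 10.6 FPKM after heat shock. SNRPA, another U1 protein, read 30.7, 13.3 and 30.1 FPKM in the controls and 76.8, 73.4 and 19.2 FPKM after heat shock. In both genes heat shock replicates 1 and 2 were high and replicate 3 fell within the range of the controls, so the groups overlapped.

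The U5 and tri-snRNP list had 19 genes tested, 15 with a positive difference and a median of 0.67 (8 of 19 and -0.045 after division by the common factor). PRPF8, the scaffold at the catalytic centre, read 11.6, 17.1 and 69.4 FPKM in the controls and 36.9, 36.8 and 3.50 FPKM after heat shock, a log2 difference of -0.44 with an SE of 1.02. The helicase gene SNRNP200 had a difference of 0.37, the GTPase gene EFTUD2 of 0.88 and PRPF31, which binds U4 and U4atac, of 1.22, each with an SE between 0.81 and 0.96. SART3, a recycling factor for U4 and U6, differed by 0.29 with an SE of 0.68. For all 5 genes the adjusted p in limma was between 0.711 and 0.817.

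For the minor spliceosome, 12 of 14 measured protein genes were tested. All 12 had a positive difference, with a median of 0.69 against 0.45 over all genes tested. On the divided values 6 of 12 were positive, with a median of 0.020 against -0.25. RNPC3, which bridges U11 and U12, read 1.10, 0.705 and 0.687 FPKM in the controls and 2.96, 3.80 and 0.336 FPKM after heat shock. Heat shock replicate 3 was thus the lowest library for this gene. ZCRB1 and SNRNP35, both in the U11/U12 particle, had log2 differences of 0.86 and 0.65. SNRNP48, which acts with U11 at the 5′ splice site, differed by 0.56, and ZRSR2, needed at the 3′ splice site of minor introns, by 0.071. The adjusted p of these 5 in limma was between 0.711 and 0.945.

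Of the genes of the Sm and LSm rings, 13 of 14 tested had a positive difference, and the median of 0.88 was the highest of the 6 lists. With a minimum mean of 10 FPKM it was 0.90, against 0.82 over all genes tested. SNRPB, a core Sm protein, read 41.3, 17.2 and 39.1 FPKM in the controls and 99.1, 103 and 22.0 FPKM after heat shock. SNRPN, also of this list, reached at most 0.211 FPKM, under the minimum, and was not tested. LSM2 had a log2 difference of 1.04 and LSM8, which directs the LSm ring to U6, of -0.11. After division by the common factor the median of this list was 0.023, with 8 of 14 positive.

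In the list of snRNP assembly and transport, all 18 tested genes had a positive difference, with a median of 0.615 against 0.45 over all genes tested. On the divided values 7 of 19 were positive, with a median of -0.080 against -0.25. SMN1 and SMN2, near-identical copies that encode the SMN protein which loads Sm rings onto snRNAs, share reads and are given together. Their sum was 2.06, 1.40 and 2.35 FPKM in the controls and 5.68, 6.29 and 1.503 FPKM after heat shock. GEMIN5, which recognises the snRNA in this complex, differed by 0.047 with an SE of 0.59. COIL, the scaffold of Cajal bodies, differed by 0.80 with an SE of 0.61.

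Of the 31 genes for snRNA transcription and processing, 27 had a positive difference, with a median of 0.52 (11 of 30 and -0.29 after division by the common factor). SNAPC1 and SNAPC4, subunits of the complex that binds snRNA promoters, had log2 differences of 0.55 and 1.20. INTS1 and INTS11, the latter the endonuclease of the Integrator that cuts the 3′ end of nascent snRNAs, differed by 0.44 and 1.05. LARP7 and MEPCE, of the 7SK particle, differed by 0.29 and 0.52, and USB1, which trims U6 and U6atac, by 0.76. In these 7 genes the SE was between 0.46 and 0.93 and the adjusted p in limma between 0.711 and 0.823.

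**Figure D4:**
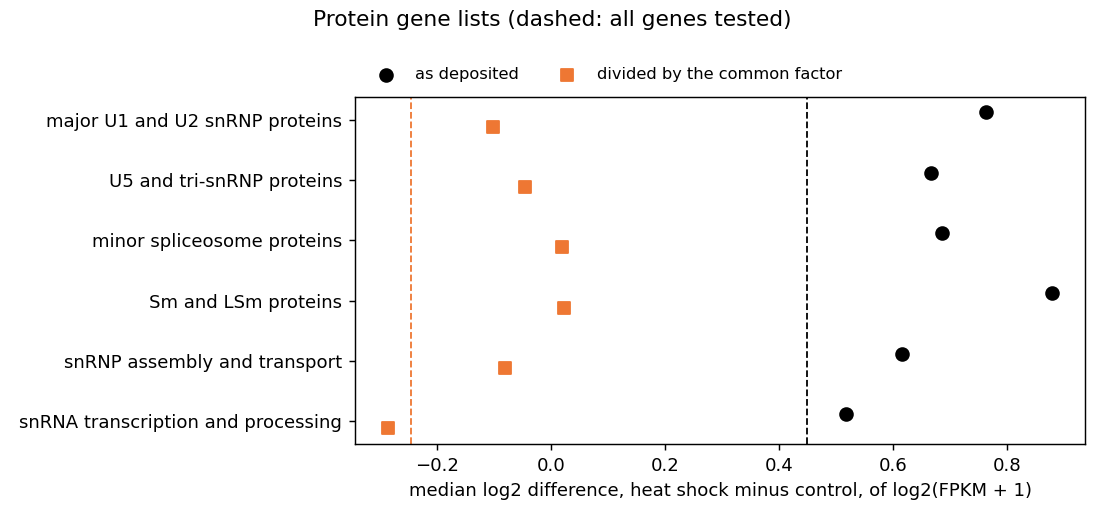
Median log2 difference of log2(FPKM + 1), heat shock minus control, over the tested genes of each list (x axis), as deposited (black circles) and after division by the common factor (orange squares), with dashed lines for the median of all genes tested. The medians lie between 0.52 and 0.88 as deposited and between -0.29 and 0.023 after division, and the dashed lines stand at 0.45 (13034 genes) and -0.25 (13869 genes). With a minimum mean of 10 FPKM, not drawn, the median over all genes tested was 0.82.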

How the data were processed

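HEK293 RNA from 3 control and 3 heat shock libraries was analysed, grouped by the sample titles. Per the submitters' notes and the paper's methods, the authors used FastQC 0.10.1 for read quality, Trimmomatic 0.3.0 for trimming, TopHat2 for alignment to hg19 and Cufflinks 2.0.2 for the assembly of each library. The deposited assemblies give each transcript an FPKM with a 95% interval, and the deposited table gives the authors' pooled FPKM of each group per entry from Cuffdiff. A pooled value is that of the entry naming the member, not of every gene at its merged locus. It is another quantification than the library values and is not their mean. Its fold changes, p-values and q-values were not used. Neither file holds counts of reads, so the depth per sample is known only through the implied fragments.

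For each gene, FPKM was summed over its annotated transcripts and the assembled transcripts grouped with that gene alone. Of 43536 annotated transcripts, 96.5% were given a symbol through their accession. The fit took genes whose mean reached 1 FPKM and was made with limma 3.58.1 (R 4.3.3) on log2(FPKM + 1), with lmFit, eBayes with a trend and Benjamini-Hochberg adjustment, and genes were called at an adjusted p under 0.05 and over 2-fold, a scale that understates the change of low genes. A log2 difference is heat shock minus control. The fit was tested on simulated data. All members, fixed examples from each list and the genes overlapping a member were named. The members, lists and tests were chosen with earlier results of these data known. The comparison of minor with major snRNAs was planned over 6 major genes and used the 2 with values. Sequences came from GRCh37 with GENCODE 44 (no assembly position exceeded a chromosome's length in the 24 chromosomes compared, the mitochondrial one left out), copies from blastn 2.17.0 and alignments from Biopython 1.88. Alternatives were pseudocount 0.1, median-of-ratios factors, TPM, no minimum, a minimum of 10 FPKM, the replicate block, no trend, each library left out, annotated transcripts alone, lines covering at least 50% of the snRNA and at most 3 times its length, and all lines of the merged locus. The common factor was added after seeing the data. The sequences of the RNU5 genes are not reported here.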

Additional observations from a re-analysis of the deposited data

How the results depend on the processing

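Over all genes, 2 were called higher and 1 lower after heat shock. The counts were 1 and 0 with median-of-ratios factors, 0 and 0 without a minimum FPKM (297 higher and 540 lower at an unadjusted p under 0.05 in limma), 4 and 0 with a minimum of 10, 1 and 0 without a trend, 1 and 0 with annotated transcripts alone, and 0 and 0 with the common factor (94 and 342 unadjusted). With each library left out they ranged from 0 to 14 higher and from 0 to 4 lower, with 14 without heat shock replicate 3 and 0 without control replicate 2. The share of positive differences also moved, as 56% of the genes at an unadjusted p under 0.05 were higher in the deposited values, against 31.3% with TPM and 21.6% with the common factor.

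With the replicate block the counts were 12 and 5. Same-numbered libraries deviated from their group means with correlations of 0.026, -0.326 and -0.378. These deviations also hold the scale of each library, with a common factor of 0.434 in control replicate 2 and 2.32 in heat shock replicate 2. They therefore cannot decide whether same-numbered libraries were paired. The block turned the call of RNU5D-1, whose values rest on heat shock replicate 2.

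RNU11 kept its direction in all 17 alternatives. RNU5D-1 kept it in 14, was at 0 in every library that remained without heat shock replicate 2 and in all 6 with lines covering the snRNA at its GENCODE place, and has no merged locus of its own name. RNU12 turned to -0.038 without heat shock replicate 1 and ranged up to 2.03 with another library left out. RNU4ATAC turned to -0.089 with median-of-ratios factors, -0.37 with TPM and -0.48 with the common factor, and ranged from -1.76 to 2.57 with a library left out, below 0 without control replicate 2 or heat shock replicate 1 or 2. RNU6ATAC turned to -0.35 with pseudocount 0.1, -0.0094 with median-of-ratios factors, -0.999 with TPM and -0.59 with the common factor, and ranged from -0.57 to 2.66 with a library left out. The cause was not tested. The difference of minor minus major snRNAs ranged from -1.53 to 1.88 and was negative in 8 of 13 alternatives. None of the 6 lists of protein partners gained a called gene under any alternative run. Of the 7 heat shock genes taken as a check, 1 was called higher with TPM, where 2 genes were called higher and 1 lower among 18093 tested. The annotated lines of the members had 0 to 11 implied fragments each. The gene values taken from assembled transcripts had more, from 17 for RNU4ATAC in control replicate 3 to 693 for RNU6ATAC in control replicate 1.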

Other observations

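RNU6-28, a further U6 entry of the annotation and no member of the 10, has a model on chromosome X. Its exons, 91 nt in all, are spread over chrX:110627484-110664835, so its values are those of this model. The fragments behind them were not worked out. It read 0, 33.6 and 61.1 FPKM in the controls and 232, 135 and 0 FPKM after heat shock, while the other U6 and U5F entries were listed at 0 in all 6 libraries.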
